A study of Mus musculus with 31 samples.

Results

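Cytochromes P450 are heme enzymes that put an oxygen atom into drugs, fatty acids, retinoids and steroids, and their genes are named by family and subfamily. The P450 genes followed here were the protein-coding genes of the GENCODE M21 annotation whose symbol begins with Cyp and a digit, leaving out the Cyp4a genes, Cyp51, Cyp7a1, Cyp7b1, Cyp8b1 and Cyp27a1. Of 87 such genes, 53 were in the liver count table of 13677 genes and 30 in the eWAT count table of 15987 genes, with 25 in both. In all 58 of the 87 were measured in at least 1 tissue, and 29 were in neither table, among them Cyp2b13, Cyp2c69, Cyp3a16, Cyp3a41a, Cyp3a44 and Cyp19a1. The authors had filtered both tables on low CPM, so a gene low in every arm could be missing, and the counts below are over the genes that passed.

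The libraries came from F1 males of the C57BL/6 strain, wild type and 24 weeks old, and every animal ate the LFD diet from week 6 onwards for 18 weeks. The diet tags HFLFD, HFD and LFD therefore do not name what these males ate. They are read here as marking which paternal line a male descends from, because the series title speaks of paternal inheritance, but no label says so outright. The arms are called HFLF, HF and LF. Liver had 6 HFLF, 5 HF and 4 LF libraries, and eWAT, the epididymal white fat pad, had 6 HFLF, 6 HF and 4 LF libraries. Library totals were 9225373 to 17268415 counts in liver and 9278083 to 27230205 in eWAT, so that 3 counts, the floor used for a gene not detected, stood for 0.1804 to 0.316 CPM (counts per 1000000 counts of the TMM-scaled library size) in liver and 0.115 to 0.318 CPM in eWAT. Summed CPM of 20 hepatocyte markers was 143400 to 160800 in HFLF livers, 151800 to 166600 in HF livers and 143000 to 158900 in LF livers, and summed CPM of 11 adipocyte markers was 50950 to 62960 in HFLF, 46160 to 58530 in HF and 45090 to 58400 in LF fat pads. No label says that animals of 1 arm came from separate litters, so p-values measure the spread between these animals only.

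As background, liver P450 enzymes sit in the endoplasmic reticulum and take electrons from the reductase encoded by Por. Members of Cyp2b, Cyp2c and Cyp3a are known targets of the xenobiotic receptors CAR (Nr1i3) and PXR (Nr1i2), Cyp1a genes of the aryl hydrocarbon receptor (Ahr), and Cyp26a1 of retinoic acid. Many of these enzymes are concentrated in hepatocytes around the central vein, and several are made more in females or in males under the pattern of growth hormone release.

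Liver and fat pad had 25 measured members of the family in common, at different levels. Levels between genes are given as mean CPM per kb of merged exon over all libraries of a tissue. In liver 17 genes lay over 100 CPM per kb, 13 between 10 and 100, and 23 under 10. The highest was Cyp2e1, which oxidises ethanol, acetone and fatty acids, at 3127 ± 519 CPM per kb (SD over 15 libraries). Next came Cyp2d26 at 647 ± 85.7 and Cyp2d9, a testosterone hydroxylase more abundant in males, at 595 ± 55.4 CPM per kb, whose ranges of spread touched. Cyp2f2, a naphthalene-oxidising enzyme of periportal hepatocytes, followed at 495 ± 60.2 and Cyp2d10 at 401 ± 37.6 CPM per kb. The spread of each also touched that of the gene ranked before it. Cyp2j5, an arachidonic acid epoxygenase, at 205 ± 23.6, Cyp1a2, the constitutive hepatic Cyp1a enzyme, at 197 ± 43.3, and Cyp2c70, which makes muricholic acids, at 183 ± 97.4 CPM per kb did not differ beyond their spread.

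In eWAT only 5 genes lay over 10 CPM per kb, 12 between 1 and 10, and 13 under 1. Cyp2e1 was again the highest at 1300 ± 643 CPM per kb (SD over 16 libraries). It was followed by Cyp4b1, a fatty acid hydroxylase, at 70.8 ± 13.9, Cyp4v3 at 34.7 ± 9.41, Cyp2d22 at 22.7 ± 3.88, the orphan enzyme Cyp20a1 at 15.5 ± 1.60, Cyp4f13 at 8.18 ± 0.80, Cyp4f17 at 7.92 ± 2.13 and Cyp2j6 at 7.81 ± 0.682 CPM per kb, of which the last 3 did not differ beyond their spread. Of the 25 genes measured in both tissues, 9 had the higher mean CPM per kb in eWAT. They were Cyp1b1, an enzyme of oestrogen metabolism, Cyp2s1, Cyp4f18, Cyp4b1, Cyp4f16, Cyp20a1, the retinoic acid hydroxylase Cyp26b1, Cyp2j9 and Cyp4f17. The difference was widest for Cyp1b1, at 6.999 CPM per kb in eWAT and 0.221 in liver. At the other end, Cyp2d26 stood at 0.484 CPM per kb in eWAT and 647 in liver. The tables of each tissue were scaled on their own, so these levels were compared as a description with no test.

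**Figure D1:**
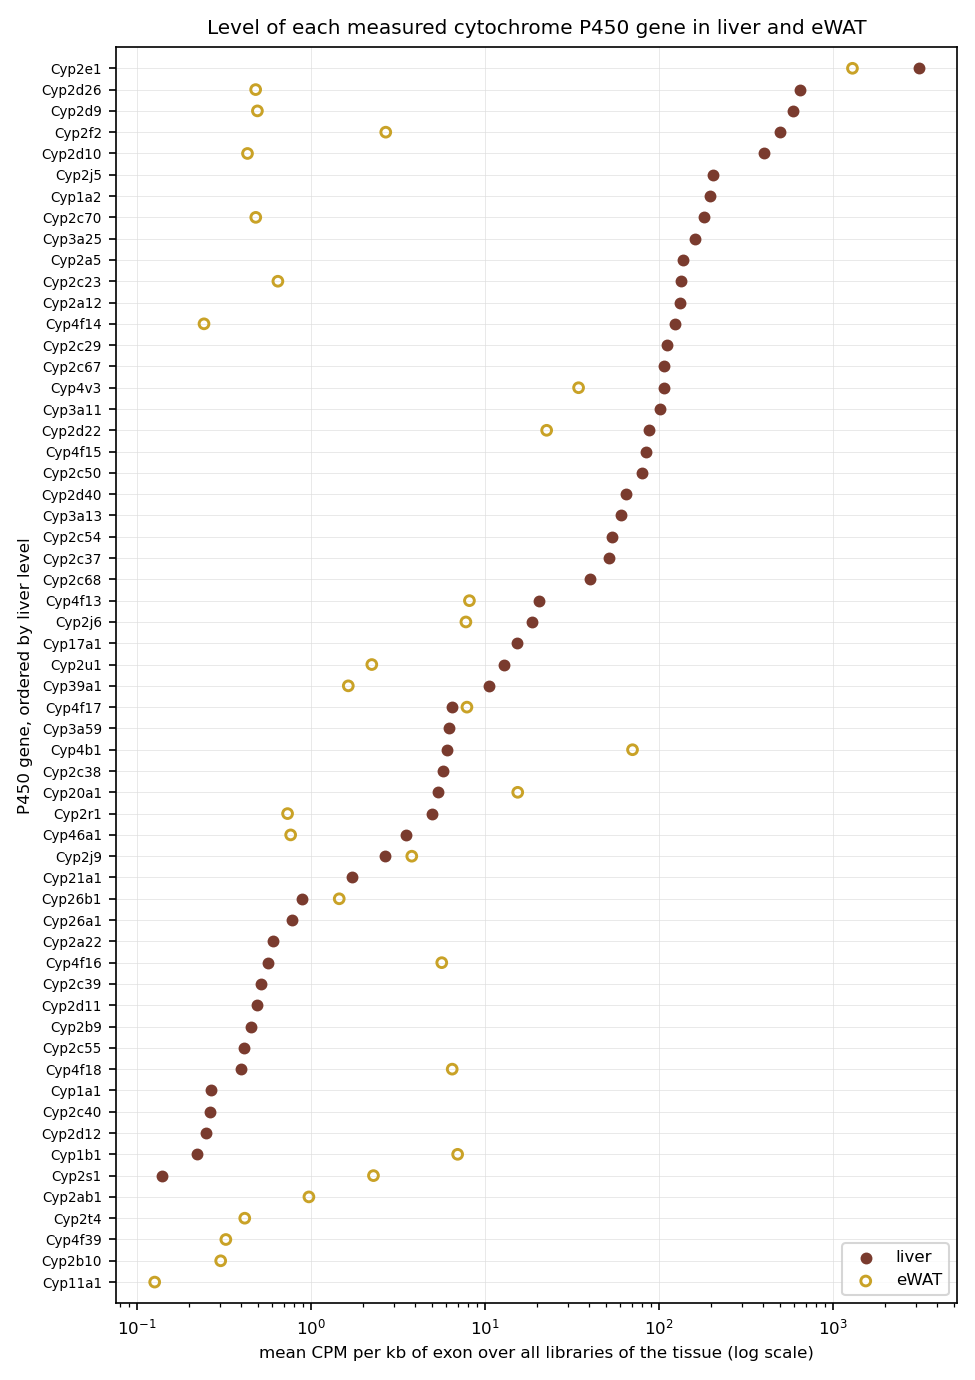
Mean level of the 58 measured P450 genes in CPM per kb of exon (x axis, log scale) in liver (filled points) and eWAT (open points), ordered by liver level, with genes absent from the liver table at the foot. Cyp2e1 leads in both tissues, and 9 genes, Cyp1b1 and Cyp4b1 among them, lie further right in eWAT than in liver.

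The P450 genes together took 1.81 ± 0.18% of liver counts in HFLF (SD, n = 6), 1.75 ± 0.09% in HF (n = 5) and 1.57 ± 0.16% in LF (n = 4), and the ranges of 1.63 to 2.15%, 1.63 to 1.86% and 1.43 to 1.80% overlapped. In eWAT they took 0.335 ± 0.082% in HFLF, 0.321 ± 0.115% in HF and 0.397 ± 0.234% in LF, of which Cyp2e1 alone made 0.272%, 0.255% and 0.333%.

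Cyp2c genes, which in mouse encode epoxygenases and hydroxylases of arachidonic and linoleic acid as well as drug-oxidising enzymes, held the P450 genes with the smallest p-values in HFLF and in HF against LF in liver. In HFLF against LF, 11 of the 12 measured Cyp2c genes had the higher mean in HFLF with a median log2 fold change of 0.44, and in HF against LF 9 of 12 had the higher mean in HF with a median of 0.39, beside medians over all liver genes of 0.000 and -0.002. A higher or lower mean, in this and the later counts, is the sign of the fitted log2 fold change. Between the CPM means the sign was the other way for Cyp2c55 in liver (0.894 CPM in HFLF and 0.913 CPM in LF) and for Cyp2b10 in eWAT, both in HFLF against LF. Both comparisons use the same 4 LF livers. The neighbours Cyp2c54 and Cyp2c50 stood out: no HFLF or HF liver overlapped any LF liver. They lie on chromosome 19 of GRCm38, Cyp2c54 at chr19:40037940-40073827 on the minus strand and Cyp2c50 at chr19:40089688-40113950 on the plus strand, within a run of Cyp2c genes.

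Cyp2c54 had 83.7, 110 and 184 CPM as the lowest, median and highest of the HFLF livers, 80.8, 85.3, 161, 94.8 and 99.9 CPM in HF livers 1, 2, 3, 5 and 6, and 57.6, 36.4, 36.7 and 74.6 CPM in LF livers 1, 2, 3 and 6. HFLF 1 was the highest liver and HF 3 stood apart within its arm, while LF 2 and LF 3 were the lowest. The log2 fold change was 1.24 ± 0.28 (SE) in HFLF against LF and 1.02 ± 0.29 in HF against LF. By edgeR's quasi-likelihood test with Benjamini-Hochberg adjustment over all liver genes, neither passed 0.05 (adjusted p = 0.566 and 1.0). DESeq2, run as an alternative, called it in HFLF against LF (adjusted p = 0.00689) and not in HF against LF (0.195).

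Cyp2c50 had 214, 273 and 397 CPM as the lowest, median and highest of the HFLF livers, 199, 239, 293, 230 and 238 CPM in HF livers, and 196, 137, 108 and 189 CPM in LF livers. The lowest HF liver lay just above the highest LF liver, and the gap to the HFLF livers was wider. The log2 fold change was 0.85 ± 0.18 in HFLF against LF (edgeR adjusted p = 0.450, DESeq2 adjusted p = 0.00912) and 0.60 ± 0.18 in HF against LF (edgeR adjusted p = 1.0, DESeq2 adjusted p = 0.549). It was the P450 gene with the smallest unadjusted edgeR p in HFLF against LF (0.000198), and without LF 3 or without HFLF 1 its fold change in that comparison was 0.70 and 0.73. Between HFLF and HF the log2 difference was 0.24 ± 0.16 with overlapping ranges.

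The Cyp2c copies are alike enough to share reads, so these values carry an uncertainty that the counts cannot show. Of all 100-base stretches of its transcripts, Cyp2c54 shared 7.59% with another gene (2.99% of 150-base stretches), mostly with Cyp2c50, and Cyp2c50 shared 5.35% (1.78%). Cyp2c37 shared 4.70%, Cyp2c29 1.36%, and Cyp2c38, Cyp2c39, Cyp2c55, Cyp2c70 and Cyp2c23 shared none. Cyp2c40, Cyp2c67 and Cyp2c68 shared 34.4%, 23.7% and 19.8%, and the split of reads among them is uncertain.

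The other Cyp2c genes varied more between animals. Cyp2c37 had 65.5, 93.5 and 178 CPM as the lowest, median and highest HFLF liver, 69.9, 80.0, 108, 93.7 and 147 CPM in HF livers, and 58.2, 52.2, 38.8 and 105 CPM in LF livers. LF 6 lay among the HFLF and HF livers while the other LF livers lay below them all, for log2 fold changes of 0.82 ± 0.35 in HFLF and 0.64 ± 0.36 in HF. Cyp2c39, which hydroxylates retinoic acid, was near the floor, with 0.202, 1.08 and 2.41 CPM as the lowest, median and highest HFLF liver, 0.571, 0.882, 0.962, 1.39 and 1.53 CPM in HF livers and 0.265, 0.421, 0.0624 and 0.698 CPM in LF livers. The arms overlapped, and LF 3 held 1 count (1.77 ± 0.60 in HFLF and 1.56 ± 0.62 in HF against LF).

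Cyp2c29 had 265, 318 and 730 CPM as the lowest, median and highest HFLF liver, 214, 276, 402, 328 and 344 CPM in HF livers, and 265, 348, 99.8 and 426 CPM in LF livers. HFLF 1 was far above and LF 3 far below the rest, and the arms overlapped (0.50 ± 0.37 and 0.14 ± 0.38). Cyp2c38 ran at 10.7 to 28.7 CPM in HFLF, 8.49 to 26.2 CPM in HF and 1.69 to 22.3 CPM in LF livers, LF 3 again the lowest. Cyp2c70 was the only measured Cyp2c gene with a negative fitted log2 fold change in HFLF against LF (-0.31 ± 0.47), and it ranged from 139 to 606 CPM in HFLF, 250 to 514 CPM in HF and 157 to 885 CPM in LF livers.

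The sequences before the starts of 5 Cyp2c genes are shown as examples. Cyp2c50, Cyp2c37, Cyp2c29 and Cyp2c38 had the higher means in both arms and Cyp2c70 the lower. Cyp2c23, Cyp2c39, Cyp2c67 and Cyp2c68 also had the higher means in both arms and are not shown. Cyp2c54 had no entry among the promoters used, so its sequence could not be shown. The sequences were not chosen by a test. The printed stretches are the 200 bases before the RefSeq start on GRCm38.p6, written in the direction of transcription, at chr19:40089479-40089678 (plus strand) for Cyp2c50, chr19:39992224-39992423 (plus) for Cyp2c37, chr19:39286885-39287084 (plus) for Cyp2c29, chr19:39463076-39463275 (minus) for Cyp2c38 and chr19:40187287-40187486 (minus) for Cyp2c70. Capitals mark CAAAGT, letters of the binding motif of the hepatocyte factor HNF4A.
Cyp2c50: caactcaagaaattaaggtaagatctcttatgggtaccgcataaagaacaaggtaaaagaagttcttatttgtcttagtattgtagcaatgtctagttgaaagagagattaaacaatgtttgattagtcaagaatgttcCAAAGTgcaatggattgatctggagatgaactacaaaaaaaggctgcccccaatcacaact
Cyp2c37: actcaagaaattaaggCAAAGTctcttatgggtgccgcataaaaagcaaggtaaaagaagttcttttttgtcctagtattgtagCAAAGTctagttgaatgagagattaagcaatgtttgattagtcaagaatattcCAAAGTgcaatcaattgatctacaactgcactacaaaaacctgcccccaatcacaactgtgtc
Cyp2c29: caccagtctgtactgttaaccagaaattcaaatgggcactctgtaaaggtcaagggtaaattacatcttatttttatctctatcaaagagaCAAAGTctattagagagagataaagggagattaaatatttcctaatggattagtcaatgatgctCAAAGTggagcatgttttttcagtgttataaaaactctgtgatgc
Cyp2c38: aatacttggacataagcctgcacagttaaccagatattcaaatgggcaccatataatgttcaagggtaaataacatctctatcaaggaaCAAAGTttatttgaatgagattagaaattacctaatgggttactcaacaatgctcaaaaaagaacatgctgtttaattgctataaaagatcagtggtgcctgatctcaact
Cyp2c70: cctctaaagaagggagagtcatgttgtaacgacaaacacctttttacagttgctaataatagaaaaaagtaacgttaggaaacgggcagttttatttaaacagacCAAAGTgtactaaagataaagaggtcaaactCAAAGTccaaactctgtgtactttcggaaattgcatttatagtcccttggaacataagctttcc

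The motif was chosen after the promoters had been looked at. CAAAGT or its reverse complement occurred in the 250 bases before 10 of 11 listed Cyp2c starts (90.91%), in 41.82% of 55 starts of P450 genes and in 12.55% of all 32851 starts in the table. TATAAA occurred in 45.45% of the Cyp2c starts, 34.55% of the P450 starts and 12.37% of all, AGGTCA in 27.27%, 21.82% and 14.02%, GCGTG in 9.09%, 21.82% and 28.16%, and TTANGTAA in 9.09%, 1.82% and 2.06%, each on either strand, and none of these letters contains another of them. Of the 58 measured genes 49 matched an entry of the table. The printed stretches of Cyp2c50 and Cyp2c37 were identical at 175 of 195 aligned bases (89.74%), so the copies of a motif in them are not independent. Cyp2c70, with the lower mean in HFLF, holds 2 copies, as Cyp2c29 does. A match describes the letters and nothing more.

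Members of Cyp3a, Cyp2a and Cyp2b are also drug-metabolising enzymes. All 4 measured Cyp3a genes had higher means in HFLF and in HF than in LF, with median log2 fold changes of 0.35 and 0.13. Some of these differences were small beside their standard errors. Cyp3a13 had 0.01 ± 0.15 in HFLF and 0.06 ± 0.15 in HF, and Cyp3a25 had 0.215 ± 0.17 and 0.06 ± 0.17. Cyp3a11, the main mouse Cyp3a enzyme and a PXR target, had 242, 504 and 1185 CPM as the lowest, median and highest HFLF liver, 292, 462, 402, 746 and 1058 CPM in HF livers and 243, 478, 102 and 460 CPM in LF livers. The arms overlapped, HFLF 1 was the highest and LF 3 the lowest liver, and the log2 fold changes of 0.88 ± 0.52 in HFLF and 0.89 ± 0.54 in HF against LF lay under 2 standard errors. Cyp3a59 ran at 6.76 to 21.9 CPM in HFLF, 8.18 to 14.96 CPM in HF and 8.89 to 12.6 CPM in LF livers (0.48 ± 0.27 in HFLF), and its exons share 7.39% of 100-base stretches with Cyp3a25.

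All 3 measured Cyp2a genes also had the higher means in both arms. The medians were the log2 fold changes of Cyp2a5, 0.67 ± 0.435 in HFLF and 0.37 ± 0.45 in HF. Cyp2a12 had 0.06 ± 0.10 and 0.18 ± 0.11, and Cyp2a22, at 0.250 to 4.88 CPM over all livers, had 1.44 ± 0.71 and 1.06 ± 0.73. Cyp2a5, the coumarin hydroxylase, had 72.0, 302 and 580 CPM as the lowest, median and highest HFLF liver, 188, 216, 366, 270 and 339 CPM in HF livers and 207, 141, 237 and 267 CPM in LF livers. HFLF held both the lowest and the highest liver, and Cyp2a5 shares 12.1% of its 100-base stretches, chiefly with Cyp2a4. Cyp2a12, a steroid hydroxylase, was among the steadiest genes, with 392 to 520 CPM in HFLF, 454 to 512 CPM in HF and 358 to 489 CPM in LF livers.

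Cyp2b9, a CAR target that is predominantly female in adult mouse liver, was the only Cyp2b gene in the liver table. It had 65, 6, 0, 9, 42 and 4 counts in HFLF livers 1 to 6, 0, 3, 5, 4 and 17 counts in HF livers and 0, 1, 2 and 1 counts in LF livers. HFLF 1 and HFLF 5, at 4.73 and 4.06 CPM, carried the HFLF mean of 1.75 ± 2.08 CPM, and HFLF 3 held no count, which allows up to 0.298 CPM there. The fitted log2 fold changes, 4.48 ± 1.34 in HFLF against LF and 2.12 ± 0.91 in HFLF against HF, rest on counts at or under the floor in every LF liver and depend on the fit's prior. With single livers left out in turn, the gene passed the filter on low counts in 11 of 15 fits.

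**Figure D2:**
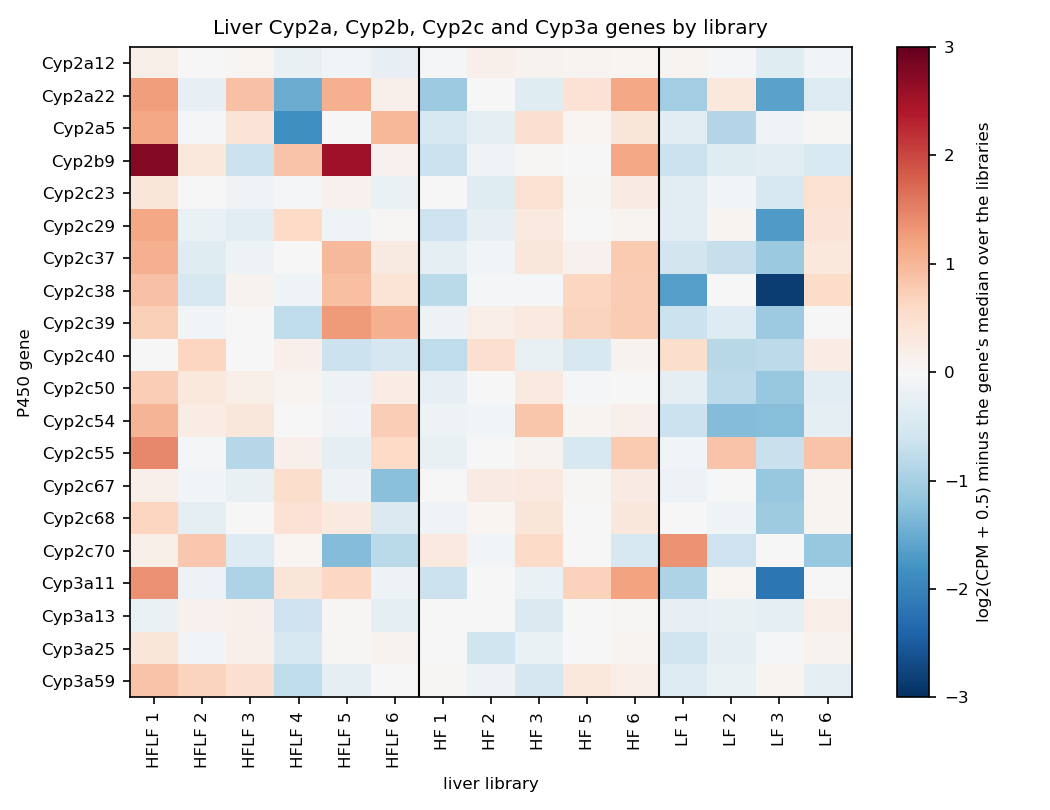
Heat map of the 20 Cyp2a, Cyp2b, Cyp2c and Cyp3a genes in the 15 liver libraries, HFLF, HF and LF from left to right, coloured by log2(CPM + 0.5) minus the median of the gene over the libraries. HFLF 1 and HF 6 lie above the median for 18 of the 20 genes each, LF 3 lies below it for 18, and Cyp2b9 is red in HFLF 1 and HFLF 5.

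Single livers weighed on these subfamilies. HFLF 1 had the highest value of all 15 livers for 19 of the 53 P450 genes, and LF 3 the lowest for 13 of 53. Summed over the 12 Cyp2c genes, CPM was 1462 to 2597 in HFLF, 1531 to 2200 in HF and 951 to 1923 in LF livers, with HFLF 1 at the top and LF 3 at the bottom. Without LF 3 the median log2 fold change over all P450 genes was 0.07 in HFLF and 0.05 in HF against LF, and without HFLF 1 it was 0.08 in HFLF.

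Cyp1a1, the classic target of the aryl hydrocarbon receptor and normally low in liver, had the lower mean in HFLF and in HF. It had 0.291, 0.369 and 0.706 CPM as the lowest, median and highest HFLF liver, 0.642, 0.0735, 0.842, 0.974 and 0.585 CPM in HF livers and 2.19, 0.526, 1.44 and 1.46 CPM in LF livers. Of the LF livers 3 lay above every HFLF and HF liver and LF 2 lay among them. The log2 fold changes were -1.78 ± 0.45 in HFLF (edgeR adjusted p = 0.639) and -1.18 ± 0.43 in HF (edgeR adjusted p = 1.0), on 3 to 7 counts a library in HFLF, 1 to 14 in HF and 5 to 33 in LF. Its neighbour Cyp1a2 had 296 to 541 CPM in HFLF, 323 to 470 CPM in HF and 316 to 539 CPM in LF livers, with smaller differences of -0.18 ± 0.18 and -0.26 ± 0.19. The receptor gene Ahr had 34.9 ± 10.9 CPM in HFLF, 32.1 ± 10.1 in HF and 31.1 ± 7.96 in LF livers (SD).

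Enzymes of retinoid and steroid metabolism followed. Cyp26a1, which clears retinoic acid, had 0.796, 1.96 and 3.69 CPM as the lowest, median and highest HFLF liver, 1.36, 1.32, 1.08, 2.78 and 1.32 CPM in HF livers and 0.133, 0.105, 0.812 and 1.27 CPM in LF livers. LF 1 and LF 2 lay below every other liver while LF 3 and LF 6 overlapped with HFLF livers (1.79 ± 0.58 in HFLF and 1.33 ± 0.60 in HF). Cyp17a1, the steroid 17-hydroxylase and lyase, had 25.9, 42.8 and 91.7 CPM as the lowest, median and highest HFLF liver, 50.8, 64.7, 42.4, 38.1 and 46.1 CPM in HF livers and 22.4, 17.8, 33.2 and 37.3 CPM in LF livers. Every HF liver lay above every LF liver by a narrow margin, whereas HFLF livers overlapped with LF (0.79 ± 0.34 in HFLF and 0.80 ± 0.35 in HF).

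The abundant liver P450 genes had smaller log2 fold changes. Cyp2e1 had 5927, 7489 and 8482 CPM as the lowest, median and highest HFLF liver, 6692, 6847, 7579, 7142 and 6806 CPM in HF livers and 4650, 4853, 5540 and 7275 CPM in LF livers. LF 6 lay among the other arms and the remaining LF livers lay below them all (0.39 ± 0.13 in HFLF and 0.33 ± 0.14 in HF). Cyp2j5 had 419, 476 and 579 CPM as the lowest, median and highest HFLF liver, 552, 492, 523, 503 and 493 CPM in HF livers and 439, 477, 363 and 428 CPM in LF livers. HF did not overlap with LF but HFLF did (0.19 ± 0.10 in HFLF and 0.26 ± 0.11 in HF).

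Cyp2d26 had 939 to 1419 CPM in HFLF livers, 1131 to 1334 CPM in HF livers and 842 to 1152 CPM in LF livers (0.17 ± 0.12 and 0.29 ± 0.12). Cyp4f15, of a subfamily that oxidises leukotrienes and fatty acids, had 169 to 242 CPM in HFLF, 157 to 232 CPM in HF and 152 to 185 CPM in LF livers (0.27 ± 0.11 in HFLF). In contrast Cyp2d9, Cyp2d10 and Cyp2f2 had log2 fold changes of -0.00 ± 0.10, 0.07 ± 0.10 and -0.09 ± 0.12 in HFLF and -0.11 ± 0.10, 0.01 ± 0.10 and -0.04 ± 0.12 in HF against LF. The low member Cyp2d11, at 0.264 to 1.51 CPM in HFLF, 0.357 to 0.696 CPM in HF and 0.526 to 2.12 CPM in LF livers, had the lower mean in HF (-1.21 ± 0.46), and 12.2% of its 100-base stretches are shared, chiefly with Cyp2d10. Cyp2r1, a vitamin D hydroxylase, had a log2 fold change of -0.29 ± 0.16 in HFLF, and the fatty acid hydroxylase Cyp2u1 one of -0.53 ± 0.27 in HF.

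**Figure D3:**
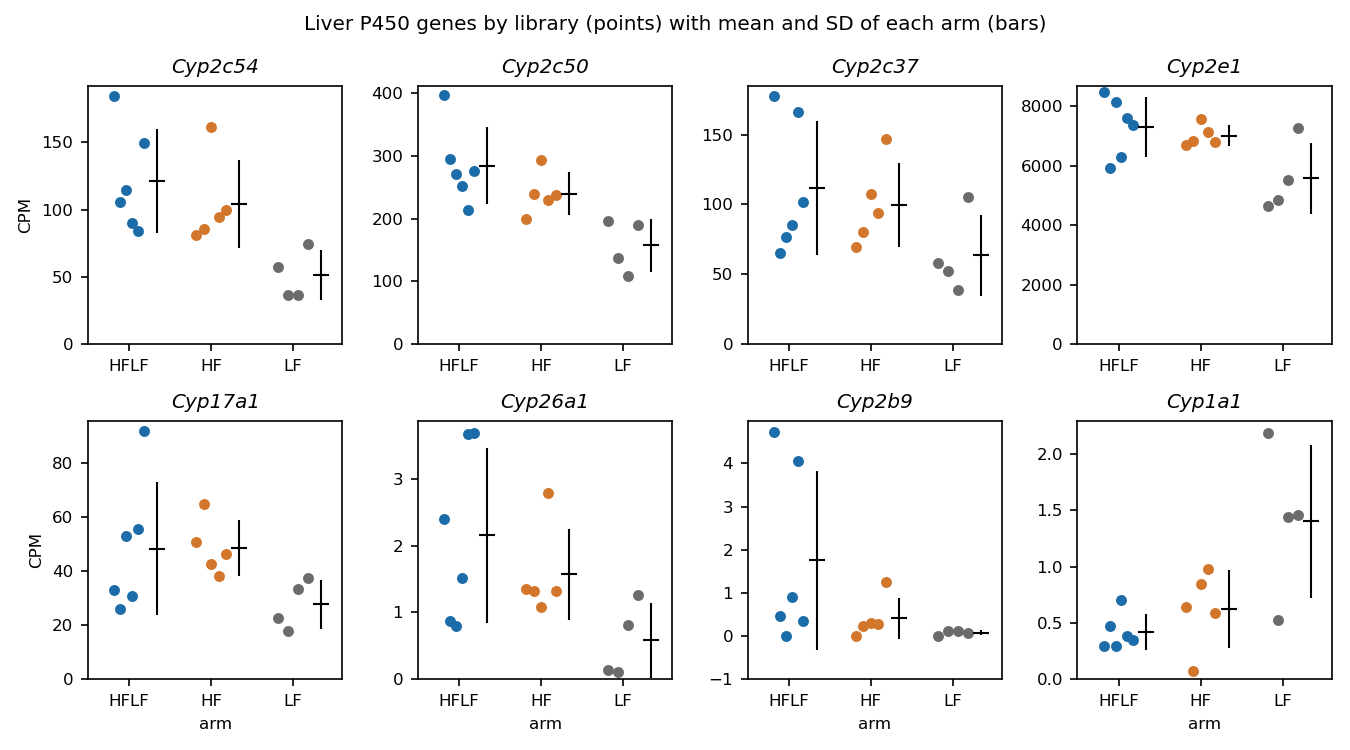
CPM of 8 P450 genes in each liver library (points) in HFLF, HF and LF, with the mean and SD of each arm as bars beside them, on linear axes. For Cyp2c54 and Cyp2c50 no HFLF or HF point reaches down to an LF point, whereas 3 of the 4 LF points of Cyp1a1 lie above all others.

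Counted over the family, 35 of the 53 liver genes had the higher mean in HFLF than in LF (median log2 fold change 0.11) and 35 of 53 in HF than in LF (0.14). With edgeR, 0 of 13677 liver genes passed an adjusted p of 0.05 in any of the 3 comparisons (0%), and none did with limma voom. At an unadjusted p under 0.05, 9 P450 genes had the higher and 1 the lower mean in HFLF against LF, beside 2.82% and 2.65% of all liver genes. In HF against LF 8 had the higher and 2 the lower mean, beside 1.92% and 1.68%. Every HFLF liver lay above every LF liver for 2 P450 genes, Cyp2c50 and Cyp2c54, beside 0.424% of all genes. Every HF liver lay above every LF liver for 4, these 2 with Cyp2j5 and Cyp17a1, beside 0.702%. DESeq2 called 11 of 8637 genes left after its own filter in HFLF against LF (0.127%), Cyp2c54 and Cyp2c50 among them, and 1 gene, no P450, in HF against LF.

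Fewer P450 genes had a small p-value in HFLF against HF, a comparison with more livers. There 34 of 53 P450 genes had the higher mean in HFLF (median 0.10, against 0.002 over all genes). Cyp2b9 was the 1 gene with the higher mean at an unadjusted p under 0.05 and none had the lower, beside 0.951% and 0.914% of all genes.

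**Figure D4:**
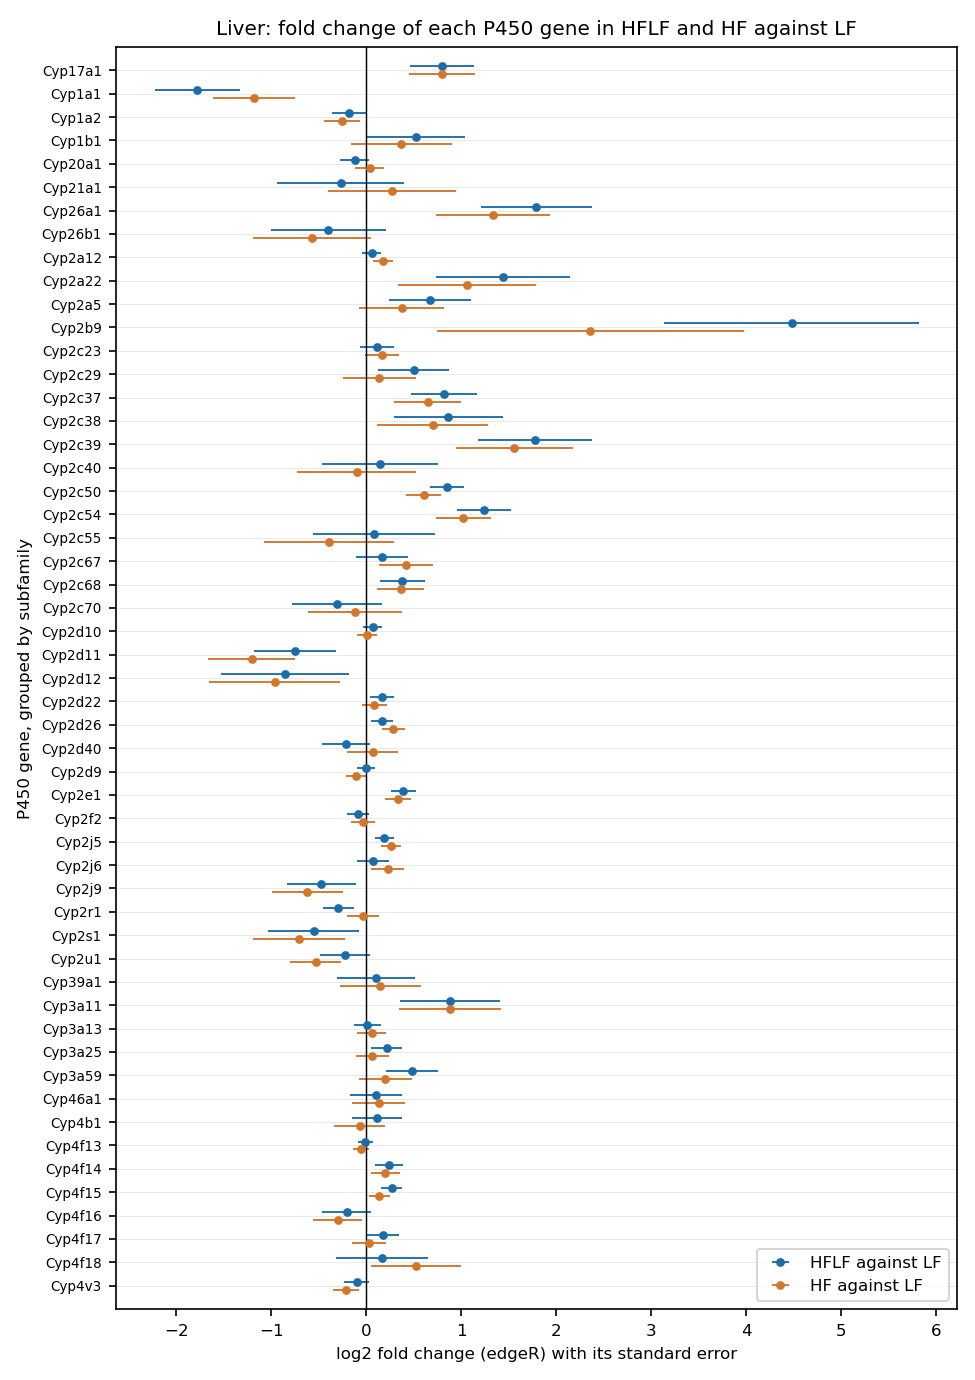
Log2 fold changes with standard errors (edgeR) of the 53 liver P450 genes in HFLF against LF and HF against LF, ordered by subfamily. Both comparisons share the LF livers. Cyp2c50 and Cyp2c54 lie right of 0 with short error bars, Cyp2b9 lies furthest right with long ones, and Cyp1a1 lies left of 0 in both.

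Genes that serve the family were looked at as lists. Of 21 measured receptors and regulators of P450 genes, 14 had the higher mean in HFLF and 16 in HF than in LF (medians 0.10 and 0.08). With edgeR 0 passed, and DESeq2 called none. At an unadjusted p under 0.05, 1 (4.76%) and 2 (9.52%) had the higher mean, beside 2.82% and 1.92% of all liver genes. The CAR gene Nr1i3 had 182 ± 39.3 CPM in HFLF, 179 ± 34.7 in HF and 139 ± 40.1 in LF livers (0.39 ± 0.19 and 0.36 ± 0.20), and the PXR gene Nr1i2 had 115 ± 29.7 CPM in HFLF, 126 ± 39.3 in HF and 91.2 ± 21.97 in LF livers (0.34 ± 0.25 and 0.47 ± 0.26). Ppara, the receptor of fasting and fat oxidation, had 116 ± 30.5 CPM in HFLF, 96.6 ± 25.8 in HF and 67.8 ± 10.5 in LF livers (0.77 ± 0.20 in HFLF, edgeR adjusted p = 0.639). Every HFLF liver lay above every LF liver, as for 0.424% of all liver genes.

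Of 9 measured electron donors and partners, 5 had the higher mean in HFLF and 5 in HF than in LF (medians 0.05 and 0.00). The reductase Por had 854 ± 373 CPM in HFLF, 860 ± 269 in HF and 568 ± 315 in LF livers, a spread of several fold within each arm (0.59 ± 0.43 and 0.60 ± 0.44). Cyb5r1, a cytochrome b5 reductase, had 11.1 ± 1.81 CPM in HFLF, 11.1 ± 0.580 in HF and 15.9 ± 2.13 in LF livers, and all HFLF and HF livers lay below all LF livers (-0.51 ± 0.12 and -0.51 ± 0.13, edgeR adjusted p = 0.566 and 1.0). It was named for its p, and both comparisons use the same LF livers. The share of all genes that lie below LF in this way was not counted. Of 12 heme genes 6 had the higher mean in HFLF and 8 in HF than in LF (medians 0.01 and 0.02).

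Position in the lobule and sex bias were read from genes outside the family. Of 12 pericentral genes 11 had the higher mean in HFLF and 9 in HF than in LF (medians 0.18 and 0.11), Oat (0.47 ± 0.17 in HFLF) and Slc1a2 (0.36 ± 0.13) with the smallest p, and of 12 periportal genes 9 and 10 had the lower mean (medians -0.06 and -0.16). Of the female-biased P450 genes 4 of 11 were measured, Cyp2b9, Cyp17a1, Cyp2c40 and Cyp39a1, and 4 had the higher mean in HFLF and 3 in HF than in LF. The log2 fold changes of Cyp2c40 (0.145 ± 0.61 in HFLF and -0.10 ± 0.625 in HF) and Cyp39a1 (0.105 ± 0.41 and 0.15 ± 0.42) were smaller than their standard errors. Of 6 male-biased P450 genes 4 had the lower mean in each arm (medians -0.045 in HFLF and -0.053 in HF). Cyp2d40 was lower only in HFLF and Cyp4b1 only in HF, and Cyp2d9 in HFLF lay at -0.002. Cyp2j5, with the smallest p of the 6 in HF, had the higher mean in both arms (0.19 ± 0.10 and 0.26 ± 0.11). Among 6 measured female-biased genes outside the family, 5 had the higher mean in HFLF and 4 in HF than in LF. Of 12 male-biased genes outside the family 8 and 7 had the lower mean. In bulk tissue a different number of cells of a type and a different amount of RNA per cell cannot be told apart, and the part of these lists in the P450 values was not tested.

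Markers of other liver cells also differed in sign. In HFLF against LF 6 of 6 endothelium markers had the higher mean (132 to 205 CPM summed in HFLF, 123 to 156 in HF and 117 to 186 in LF) and 5 of 5 cholangiocyte markers the lower (31.3 to 111 in HFLF, 32.6 to 82.2 in HF and 42.3 to 369 in LF), none at an unadjusted p under 0.05. In HF against LF 9 of 9 macrophage markers had the lower mean (154 to 291 CPM in HFLF, 150 to 320 in HF and 142 to 410 in LF), as did 4 of 4 measured mesothelium and 5 of 5 measured red blood cell markers, while 5 of 5 measured B cell markers had the higher. The 4 mesothelium markers had the lower mean in HFLF too, and the part of these cells in the P450 values was not tested.

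Of 7 clock output factors 4 had the lower mean in HFLF and 5 in HF than in LF (medians -0.14 and -0.13), and of 8 growth hormone genes 6 and 7 had the higher (0.10 and 0.14). Of 8 measured retinoid genes 5 and 4 had the higher mean, Rdh16, a retinol dehydrogenase, with 90.8 ± 38.1 CPM in HFLF, 79.0 ± 21.8 in HF and 43.1 ± 19.6 in LF livers (1.08 ± 0.38 and 0.88 ± 0.38). Of 5 measured eicosanoid partners 4 and 4 had the lower mean, and of 9 steroid and vitamin D genes 6 and 7 the higher.

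In eWAT the P450 genes with the smallest p-values in HFLF against LF were Cyp2d10, Cyp2f2, Cyp2d26 and Cyp2d9, all abundant in liver and all with the lower mean in HFLF. With edgeR 0 of 15987 genes passed in any of the 3 comparisons (0%). In HFLF against LF 12 of 30 P450 genes had the higher mean (median -0.07, against 0.009 over all genes), and 4 had the lower and 0 the higher mean at an unadjusted p under 0.05, beside 7.06% and 3.78% of all genes. In HF against LF 11 of 30 had the higher mean (median -0.04, against -0.004), with 1 gene higher and 0 lower at that p, beside 2.82% and 4.22%. In HFLF against HF 12 of 30 had the higher mean (median -0.05, against 0.001), and 3 had the lower and 0 the higher mean at that p, beside 4.43% and 4.86%. DESeq2 called 69 of 14725, 12 of 2659 and 52 of 6068 genes left after its own filter in these 3 comparisons, and limma voom 0. None of the calls was a P450 gene. However, DESeq2 gave most P450 genes no adjusted p in HF against LF and in HFLF against HF. The same held for Cyp2d10 and Cyp2d26 in HFLF against LF, so these genes could not be called.

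Cyp2d9, Cyp2d10 and Cyp2d26, abundant in hepatocytes, were near the floor in fat. Cyp2d10 had 0, 0.126 and 0.518 CPM as the lowest, median and highest of the HFLF fat pads, 0, 0.633 and 2.85 CPM of the HF fat pads, and 0.608, 1.38, 2.55 and 0.513 CPM in LF fat pads 2, 3, 5 and 6. HF 5 and LF 5 were the highest, HFLF and LF overlapped by a small margin, and the HF range held all of the HFLF and LF values (-2.76 ± 0.87 in HFLF against LF, edgeR adjusted p = 0.282, and -2.33 ± 0.82 in HFLF against HF). Cyp2d9 had 0, 0.117 and 1.32 CPM in HFLF, 0.350, 0.852 and 6.08 CPM in HF and 1.08, 2.54, 4.79 and 0.598 CPM in LF fat pads (-2.53 ± 0.98 in HFLF against LF). Cyp2d26 had 0, 0.213 and 0.797 CPM in HFLF, 0, 0.773 and 3.23 CPM in HF and 0.946, 2.01, 2.30 and 0.598 CPM in LF fat pads (-2.19 ± 0.80). The same fat pads, HF 5, LF 5 and LF 3, were the highest for all 3 genes.

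Hepatocyte transcripts were high in the same fat pads. Of 20 hepatocyte markers 19 had the lower mean in HFLF against LF, 17 at an unadjusted p under 0.05, beside 7.06% of all genes. Markers of 1 cell type can vary together, so these are not 17 separate results. Without Trf, which fat itself expresses at 3063 to 5338 CPM, the markers summed to 26.2 to 143 CPM in HFLF, 26.8 to 557 CPM in HF and 87.4 to 434 CPM in LF fat pads, and Alb was at 12.1 to 53.3 CPM in HFLF, 11.9 to 207 CPM in HF and 35.0 to 172 CPM in LF. Per 1000 Alb counts, summed over libraries, eWAT held 23.4 counts of Cyp2d9, 12.3 of Cyp2d10 and 15.1 of Cyp2d26, and liver held 24.1, 10.1 and 17.8. In single fat pads the ratio ran from 0 to 29.4, from 0 to 21.7 and from 0 to 31.7 for these genes. HF 5, LF 3 and LF 5 gave 8270 of the 14755 Alb counts, and the other 13 fat pads together held 18.5, 10.6 and 15.6. The libraries over 100 CPM of Alb, HF 5, LF 3 and LF 5, were left out after the data had been seen. Without them the log2 fold changes in HFLF against LF were -1.60 for Cyp2d10, -1.14 for Cyp2d9 and -1.29 for Cyp2d26 (edgeR adjusted p = 0.503, 0.669 and 0.564). They were also the 3 fat pads highest for these genes, and LF kept only LF 2 and LF 6. The choice itself thus lowers the LF mean, and the origin of these transcripts was not tested. Markers of other cells were also lower in HFLF against LF, namely 6 of 6 B cell markers (8.52 to 16.8 CPM in HFLF, 10.1 to 168 in HF and 9.82 to 421 in LF), 8 of 8 macrophage markers (613 to 1208 in HFLF, 911 to 1822 in HF and 942 to 2097 in LF) and 5 of 5 testis germ cell markers (0.1995 to 1.21 in HFLF, 0.0874 to 116 in HF and 0.0675 to 23.2 in LF). So were 6 of 6 T cell markers (7.84 to 15.01 CPM in HFLF, 8.58 to 31.1 in HF and 8.80 to 65.8 in LF) and 6 of 6 red blood cell markers (236 to 695 in HFLF, 271 to 772 in HF and 477 to 1066 in LF), and their part in the P450 values was not tested.

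**Figure D5:**
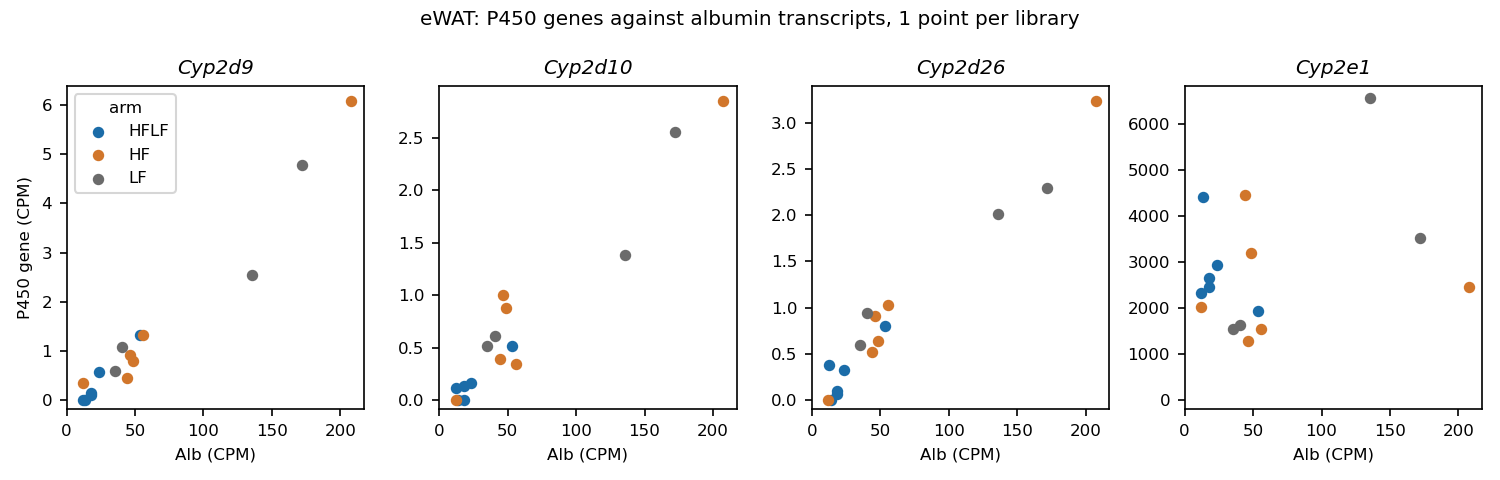
CPM of Cyp2d9, Cyp2d10, Cyp2d26 and Cyp2e1 (y axes) against CPM of Alb (x axis) in the 16 eWAT libraries, 1 point each, coloured by arm. The Cyp2d genes are highest in the 3 libraries with over 100 CPM of Alb, while Cyp2e1 is spread from 1279 to 6557 CPM with no such order.

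Cyp2e1 in fat had another ratio to Alb. It stood at 44280 counts per 1000 Alb counts in eWAT and at 103 in liver. Its level was 1938, 2556 and 4408 CPM as the lowest, median and highest HFLF fat pad, 1279, 2244 and 4456 CPM in HF, and 1621, 6557, 3515 and 1538 CPM in LF fat pads. LF 3 was the highest of all, and the arms overlapped throughout. Cyp2f2 had 0.819, 2.32 and 6.47 CPM in HFLF, 1.82, 5.39 and 9.85 CPM in HF and 2.57, 27.4, 5.17 and 3.93 CPM in LF fat pads, so that LF 3 alone set the LF mean (-1.84 ± 0.66 in HFLF against LF, -0.54 without LF 3). It had 80.7 counts per 1000 Alb counts in eWAT and 15.4 in liver.

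Other P450 genes of fat had means closer to one another. Cyp20a1 had 30.1, 36.4 and 41.9 CPM in HFLF, 33.4, 37.2 and 39.1 CPM in HF and 33.0, 33.9, 31.6 and 29.2 CPM in LF fat pads (0.18 ± 0.09 in HFLF and 0.22 ± 0.09 in HF). It was the 1 gene with the higher mean at an unadjusted p under 0.05 in HF against LF, and its arms overlapped. Cyp4b1 had 116, 173 and 190 CPM in HFLF, 122, 151 and 200 CPM in HF and 154, 101, 172 and 214 CPM in LF fat pads, and Cyp2d22 had 68.7 to 116 CPM in HFLF, 79.9 to 105 CPM in HF and 69.0 to 113 CPM in LF. Cyp4v3 had 83.6, 163 and 186 CPM in HFLF, 105, 128 and 168 CPM in HF and 128, 49.5, 112 and 153 CPM in LF, with LF 3 the lowest (0.41 ± 0.26 in HFLF).

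Cyp4f16 was the steadiest P450 gene in fat, with a within-arm SD of 0.09 on the log2 scale, at 15.4 to 17.4 CPM in HFLF, 16.1 to 18.4 CPM in HF and 15.8 to 19.9 CPM in LF (-0.15 ± 0.08 in HFLF). Cyp2j6 was nearly as steady, at 27.8 to 31.5 CPM in HFLF, 23.9 to 29.8 CPM in HF and 21.7 to 29.1 CPM in LF. Cyp1b1 had 26.6 to 62.6 CPM in HFLF, 32.8 to 46.1 CPM in HF and 17.5 to 70.3 CPM in LF, and LF held both ends. Cyp2s1 had 1.39 to 18.8 CPM in HFLF, 3.83 to 23.7 CPM in HF and 6.21 to 15.2 CPM in LF, with the lowest value in HFLF 6 (0.64 ± 0.53 in HF against LF).

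Whether the arms differed otherwise in liver than in eWAT was tested over the 12735 genes of both tables. For 14 combinations of arm and number there is a library of each tissue, which may be 1 animal, and the fit treats them as independent. With edgeR 0 genes passed in any of the 3 contrasts (0%), and limma voom with these combinations as a block called 0 as well. At an unadjusted p under 0.05 there were 4 of 25 P450 genes in HFLF against LF, beside 5.84% of all genes, 1 in HF against LF, beside 4.88%, and 3 in HFLF against HF, beside 4.94%. The 4 were Cyp2d10 (liver minus eWAT 2.76 ± 0.75 on the log2 scale, edgeR adjusted p = 0.475), Cyp2d26 (2.26 ± 0.68), Cyp2d9 (2.48 ± 0.86) and Cyp2f2 (1.76 ± 0.66), and without HF 5, LF 3 and LF 5 of eWAT the differences were 1.58, 1.36, 1.06 and 0.21. Those fat pads were chosen after the data had been seen and hold the highest LF values of these genes. Smaller differences follow from that choice. DESeq2 called 23 of the 878 genes left after its filter in that contrast, Cyp2d10 among them (adjusted p = 0.0267). In HF against LF the gene was Cyp2j9 (-0.86 ± 0.39), with 4.48 to 9.88 CPM in HF livers, against 4.44 to 18.7 CPM in LF livers. In eWAT it had 11.6 to 14.9 CPM in HF and 8.80 to 13.1 CPM in LF fat pads (0.23 ± 0.15), and the arms overlapped in both tissues.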

How the data were processed

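The 2 deposited tables used, liver and eWAT, give unscaled gene counts, left after a filter on low CPM by the authors whose threshold is not stated. The authors aligned the reads with STAR on the genome GRCm38.p6 (submitters' processing notes). No source used here gives the version, the annotation used for counting, the strand setting or the read length, so reads of overlapping or antisense genes cannot be told apart. Deposited RPKM tables were not used, because the gene lengths they imply do not follow the genes. Genes were matched by identifier to GENCODE M21 (13667 of 13677 in liver, 15974 of 15987 in eWAT).

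Counts were tested with edgeR 4.0.16 in R 4.3.3 (filterByExpr, which removed 0 genes, TMM scaling, quasi-likelihood test, Benjamini-Hochberg adjustment over all genes, threshold 0.05), with the 3 arms of a tissue in 1 fit. Tissue differences were interaction terms over both tissues. DESeq2 1.42.0 and limma 3.58.1 (voom) were alternatives. The scripts were tested on simulated data for HF against LF. Of 100 genes changed by 1 on the log2 scale the edgeR fit called 87 in liver and 79 in eWAT, and of 100 changed by 2 it called 100 in each. It also called 8 unchanged genes in liver and 3 in eWAT. Changes were set only in genes over 1 CPM, and every gene was given the trended spread for its level. Single P450 genes can spread more, so these shares do not give the power to detect a change in them. The members and lists were chosen with earlier results of these data known. By rule, P450 genes to describe in full were those called by a tool, the 8 with the smallest p in a comparison, and the 8 of highest level per kb in a tissue. Not all were. Cyp2ab1 (0.23 ± 0.18 in eWAT HF against LF) and Cyp46a1 (-0.47 ± 0.27 in eWAT HFLF against HF) were left out above. Others, among them Cyp4f18, Cyp2r1, Cyp2u1 and Cyp2d40, were given only in part. Cyp2c29, Cyp2c37, Cyp2c38, Cyp3a11, Cyp3a59, Cyp2a5, Cyp17a1 and the liver values of Cyp2j9, with Cyp1b1 in eWAT, lie outside this rule and were chosen after their values were seen. Liver fold changes of Cyp3a13, Cyp3a25, Cyp2a22, Cyp2c40 and Cyp39a1, also outside it, are given beside the counts of their subfamily or list. From each list the 3 genes of smallest p could be named, with Nr1i2, Nr1i3, Ahr and Por. No 2 libraries of an arm agreed within sampling noise. Floors and counts cover counting error only. Promoters came from RefSeq's GRCm38.p6 starts.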

Additional observations from a re-analysis of the deposited data

Results flagged for a closer look

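In 13 of 117 sets of libraries (1 named P450 gene in 1 arm and tissue each), 1 library lay apart from the others of its arm by a gap test that chance passes in about 1 of 20 sets. In liver, HF 5 had 2.78 CPM of Cyp26a1 where the next HF liver had 1.36, HF 6 had 1.24 CPM of Cyp2b9 where the next had 0.301, HF 3 had 161 CPM of Cyp2c54 where the next had 99.9, and HF 2 had 219 CPM of Cyp2d40 where the next had 125.

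In eWAT 3 of the 9 sets were Cyp2d genes in HF 5, the fat pad with the most Alb. It had 6.08 CPM of Cyp2d9 (next 1.32), 2.85 CPM of Cyp2d10 (next 1.00) and 3.23 CPM of Cyp2d26 (next 1.03). HFLF 1 had 0.518 CPM of Cyp2d10 (next 0.164). For Cyp2f2, LF 3 had 27.4 CPM (next 5.17) and HFLF 6 had 6.47 CPM (next 2.84). LF 6 had the highest Cyp4f13 of its arm at 43.5 CPM (next 35.9) and the lowest Cyp2j6 at 21.7 CPM (next 27.9). HF 1 had 39.2 CPM of Cyp4f17 (next 22.7). No cause was tested.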

How the results depend on the processing

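DESeq2 called 11 genes in liver HFLF against LF, 2 of them P450 genes, 1 in liver HF against LF, 69 in eWAT HFLF against LF, 12 in eWAT HF against LF, 52 in eWAT HFLF against HF and 23 in the tissue difference of HFLF against LF, 1 of them a P450 gene, where edgeR called 0, and the cause was not tested. With the replicate number of the labels as a replicate block, 1 gene was called in liver HFLF against LF and none elsewhere, with log2 fold changes of 0.94 for Cyp2c50 and 1.396 for Cyp2c54. Same-numbered libraries did not deviate together in every pair of any comparison (the lowest correlation per comparison lay between -0.338 and 0.079, the highest between 0.121 and 0.384). A library correlated best with its own number in 0 of 5 (liver HFLF against HF) to 4 of 6 cases (eWAT HFLF against HF), a hint from the data, and no label says what a number stands for. Leaving out single libraries gave a median over the P450 genes of 0.074 to 0.226 in liver HFLF against LF and of -0.055 to 0.050 in eWAT HF against LF, where it was 0.041 without the B cell-rich LF 2, HF 3 and HF 5. It gave 0 to 13 calls in eWAT HFLF against LF (13 without LF 5), and 0 to 1 in the tissue differences of HFLF against LF and of HFLF against HF.

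In eWAT HF against LF some directions rested on single fat pads. Leaving out 1 library gave -1.139 to 0.482 for Cyp2f2 and -0.658 to 0.166 for Cyp2e1, both highest without LF 3. Without LF 3, LF 6, HF 2 and HF 6, which hold germ cell transcripts, the log2 fold changes were 0.764 for Cyp2f2, 0.238 for Cyp2e1, 0.189 for Cyp4f17 and -0.063 for Cyp2j9, and without LF 3, LF 5 and HF 5 (chosen after seeing the data) 0.482 for Cyp2f2 and 0.664 for Cyp2e1. Of 1528 values of named P450 genes under the alternatives, 1517 kept their direction and side of the threshold. An alternative set on the sum of all hepatocyte markers left out no library, since Trf dominates it, and was not run.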
